A study of Mus musculus with 6 samples.

Results

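The EGF receptors and their ligands were followed in sorted mouse mammary epithelial cells as a list of 10 genes, 4 receptors (*Egfr*, *Erbb2*, *Erbb3* and *Erbb4*) and 6 ligands (*Areg*, *Ereg*, *Hbegf*, *Tgfa*, *Nrg1* and *Btc*), out of 54418 genes in the count table. Each of the 10 matched a single Ensembl gene, had at least 63 counts in each library and passed the filter on low counts. The cells came from C57BL/6 females 4 weeks of age, 3 with the WT *Glis2* genotype and 3 labelled *Glis2* KO, with 1 library per mouse. WT stands for *Glis2*+/+ and KO for *Glis2*-/-, a germline deletion carried by every cell of the animal and not by the epithelium alone. The labels give no other difference between the groups. Cells were stained for TER-119, CD31 and CD45, which mark red cells, endothelium and leukocytes, and for CD24 and CD49f, which part luminal from basal epithelium. The labels do not say which gate was kept, and each library was made from 1 ng of RNA with a stranded total RNA kit. The comparison asks whether transcripts of this growth factor system differ between KO and WT epithelium at puberty.

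The ErbB receptors are tyrosine kinases that pair up when a ligand of the EGF family binds. ErbB2 has no ligand of its own and serves as a partner, ErbB3 has little kinase activity, and the ligands are made as membrane proteins that are released by proteases. *Areg*, *Tgfa*, *Hbegf*, *Ereg* and *Btc* bind EGFR (*Hbegf*, *Ereg* and *Btc* also ErbB4), while *Nrg1* binds ErbB3 and ErbB4. In the pubertal gland, amphiregulin, the product of *Areg*, is made by hormone-sensing luminal cells in response to estrogen and drives ductal outgrowth through EGFR in the stroma.

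Total counts lay between 24996524 and 31393917 per library, of which the 10 genes together took between 0.0807% and 0.105%. Epithelial markers were present in every library, with at least 8516 counts for *Krt14*, a basal keratin, and 10925 for *Epcam*. The libraries were not purely epithelial, however. Summed CPM, the counts divided by the library size after edgeR's TMM scaling, of 8 fibroblast markers lay between 2330 and 7800, those of 6 endothelial markers between 119 and 645 despite the CD31 stain, and those of 7 immune markers between 18.8 and 69.3. Replicate 2 of each genotype stood apart from the other libraries, with the lowest fibroblast sums, 2330 in WT and 2620 in KO, and the highest sums of 8 luminal and luminal progenitor markers, 5100 and 4860. No batch is given per library in the labels. *Glis2* had 671, 663 and 510 counts in WT and 252, 509 and 510 in KO, and 21.7, 23.2 and 19.6 CPM against 10.1, 17 and 16.3 CPM. All 3 KO libraries lay below the WT libraries in CPM, yet reads of the gene remained in KO. The KO to WT difference on the log2 scale was -0.57 ± 0.22 (standard error; adjusted p = 0.906, edgeR).

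*Areg* lies in a cluster of EGF family genes on mouse chromosome 5 (GRCm38), at 91139599-91148432 on the + strand, with *Epgn*, *Ereg*, *Areg* and *Btc* in this order and no other protein-coding gene between them. *Areg* spans 8834 bases, whereas *Erbb4* on chromosome 1 spans 1075874 bases and *Nrg1* on chromosome 8 spans 1069479 bases. The gap is 46 kb from *Ereg* to *Areg* and 209 kb from *Areg* to *Btc*. Upstream sequences were taken from RefSeq (GRCm38.p6), which matched 6 of the 10 genes. The 250 bases before the start are shown for *Areg*, the most abundant of the 10 transcripts, and for *Erbb4*, the receptor that varied most. Capitals mark matches to TGACGTCA, the cyclic AMP response element, and to TATAAA, the TATA box, searched on both strands.
Areg (chr5:91139349-91139598, + strand): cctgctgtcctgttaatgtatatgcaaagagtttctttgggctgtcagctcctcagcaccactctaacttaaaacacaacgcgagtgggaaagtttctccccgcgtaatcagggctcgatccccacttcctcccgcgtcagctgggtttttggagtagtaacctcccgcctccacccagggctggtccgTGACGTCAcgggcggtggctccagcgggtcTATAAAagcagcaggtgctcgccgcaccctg
Erbb4 (chr1:69108060-69108309, - strand): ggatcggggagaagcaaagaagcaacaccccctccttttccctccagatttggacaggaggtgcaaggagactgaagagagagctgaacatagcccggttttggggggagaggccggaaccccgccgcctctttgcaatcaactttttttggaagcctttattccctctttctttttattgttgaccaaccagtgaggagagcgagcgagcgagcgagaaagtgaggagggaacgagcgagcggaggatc
In *Areg* the first match began 61 bases and the second 31 bases before the start. The 2 motifs occurred in 1.55% and 12.4% of 32817 upstream windows of the same length. In the 5 other windows examined, those of *Erbb4*, *Egfr*, *Erbb2*, *Tgfa* and *Btc*, neither motif was found, nor in any of the 6 the GLI-type motif GACCACCCA, which 0.225% of all windows hold. GC content was 57.2% for *Areg*, 54.0% for *Erbb4* and 60.8% for *Egfr*, against a median of 52.4%.

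To compare levels between genes, the deposited TPM values, which are per transcript length, were rescaled so that protein-coding genes reach the same total in each library, because they held only 8.98% to 11.4% of the deposited TPM. On this scale *Areg* stood highest, with 267, 276 and 567 TPM in WT and 437, 461 and 406 TPM in KO. Its median of 421 TPM lay above 98.5% of protein-coding genes. *Nrg1*, the neuregulin ligand, followed with 184, 132 and 156 TPM in WT and 161, 151 and 232 TPM in KO. Each library of *Areg* lay above each library of *Nrg1*, and each of *Nrg1* above those of *Erbb3*, the next gene by its median, but not above those of *Hbegf*, which reached 144 TPM in WT replicate 3. *Erbb3* and *Hbegf* came next with medians of 91.7 and 90.1 TPM, and their ranges overlapped, *Erbb3* being the higher in 3 of 6 libraries. *Erbb2* (median 62.9 TPM, from 52.6 to 73.6) and *Egfr* (median 47.9 TPM, from 41.4 to 56.6) also overlapped, although *Erbb2* was the higher in 5 of 6 libraries. A clear step separated *Egfr* from *Tgfa*, the transforming growth factor alpha gene, whose highest library held 17.2 TPM. Below it, *Tgfa* (median 12.7 TPM), *Btc* (7.5), *Erbb4* (5.25) and *Ereg* (2.9) had ranges that overlapped from each to the next. *Ereg*, the gene of epiregulin, was the lowest by its median and the nearest neighbour of *Areg* on the chromosome among the 10, although *Erbb4* lay above it in only 4 of 6 libraries.

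**Figure D1:**
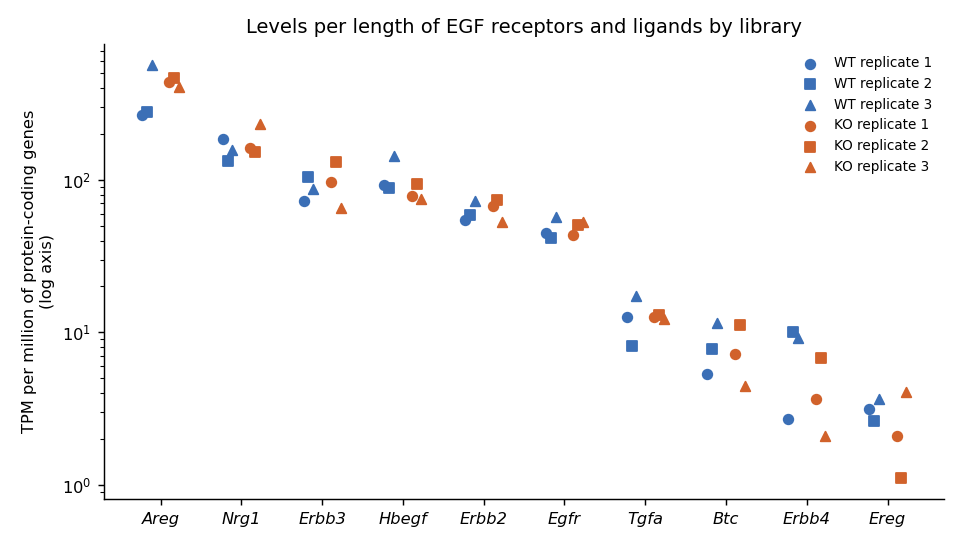
Level per length of each gene in each library, as TPM rescaled to a fixed total of protein-coding genes (log axis), with WT in blue, KO in orange and the marker shape giving the replicate. *Areg* sits between 267 and 567 TPM, above each of the other 9 genes in every library, and WT and KO points overlap for each gene.

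Within the receptors, none of the 4 shares was separate between the genotypes. *Erbb3* gave 42.9% ± 5.19 of the summed receptor TPM in WT and 44.5% ± 6.25 in KO (SD, n = 3), *Erbb2* 30.3% ± 2.61 and 30.1% ± 1.93, and *Egfr* 23.3% ± 3.51 and 23.5% ± 6.07. The differences of 1.63, -0.233 and 0.200 percentage points were all smaller than the SD between mice. *Erbb4* gave 3.43% ± 1.66 in WT and 1.86% ± 0.696 in KO (SD, n = 3), a difference of -1.58 percentage points (two-sided exact permutation p = 0.3, adjusted p = 1.0 over the 10 shares). The summed TPM of the 6 ligands was 2.40 to 3.97 times the summed receptor TPM in WT and 2.78 to 4.24 times in KO.

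None of the 10 genes passed the test between KO and WT, and for each the difference was within the spread between mice. With edgeR's quasi-likelihood test, a call needed an adjusted p of at most 0.05 and a difference of 0.58 or more on the log2 scale in either direction. This was met by 0 of 10 genes, where the background is 0% (0 of 21236 genes tested). None of the 10 had an unadjusted p under 0.05, against 5.32% of all genes (2.99% higher and 2.33% lower in KO), and DESeq2 with apeglm shrinkage also called 0 of 10, against 0.165% of the genes it tested. None showed WT and KO libraries without overlap, against 11.7% of all genes (6.23% higher and 5.50% lower in KO). The median log2 fold change was 0.11 over the 10 genes, 6 higher and 4 lower in KO, and 0.011 over all genes tested. On deposited TPM, as log2(TPM + 1) in limma, 2 were higher and 8 lower, with *Egfr*, *Erbb2*, *Erbb3* and *Tgfa* turning to the lower side and the median of all genes at -0.064. Because the bulk libraries mix cell types, fewer cells that express a gene and less RNA per cell cannot be told apart.

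**Figure D2:**
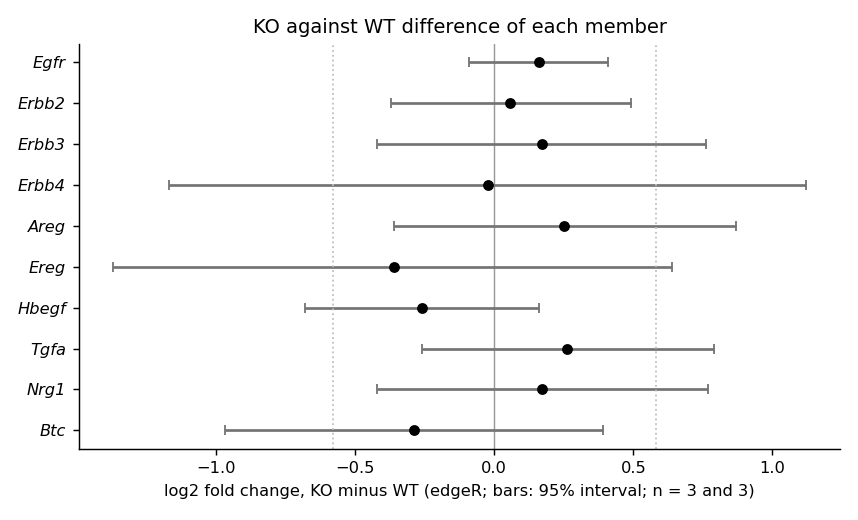
Log2 fold change of each gene, KO minus WT, from edgeR with its 95% interval (3 mice per genotype), the dotted lines marking the threshold of 0.58 in each direction. Each interval includes 0, and those of *Egfr* and *Erbb2* lie inside the threshold on both sides.

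Among the receptors, *Egfr* was the most tightly measured. Its CPM values were 96.4, 98.4 and 107 in WT and 107, 105 and 126 in KO, so that KO replicate 3 stood highest and the other KO libraries lay within or at the edge of the WT range. The log2 fold change was 0.16 (95% interval -0.091 to 0.41, adjusted p = 0.941, edgeR). *Erbb2* had 100, 134 and 123 CPM in WT and 135, 146 and 90.6 CPM in KO, with both the highest and the lowest library in KO. Its log2 fold change of 0.057 had a 95% interval of -0.37 to 0.49 (adjusted p = 0.985, edgeR). For *Egfr* and *Erbb2* the intervals leave no room for a change as large as 0.58. *Erbb3* had 190, 291 and 234 CPM in WT and 262, 369 and 175 CPM in KO, and the KO mice alone spanned the whole WT range. Its log2 fold change was 0.17 (95% interval -0.42 to 0.76, adjusted p = 0.974, edgeR). *Erbb4*, which has a part in lobuloalveolar development, had 5.25, 19.9 and 10.6 CPM in WT and 8.71, 18.9 and 7.64 CPM in KO. Replicate 2 was by far the highest in both genotypes, and the log2 fold change of -0.021 had a 95% interval as wide as -1.17 to 1.12. Leaving out single mice moved it from -0.55, without KO replicate 2, to 0.57, without WT replicate 2, and on log2(TPM + 0.1) it was -0.76 (adjusted p = 0.787, limma).

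Among the ligands of EGFR, *Areg* had 123, 135 and 268 CPM in WT and 208, 228 and 191 CPM in KO. The KO mice lay close together, while WT replicate 3 stood above all KO libraries and the other 2 WT libraries below them. On the log2 scale KO exceeded WT by 0.25 ± 0.27 (standard error; adjusted p = 0.953, edgeR). Without WT replicate 3 it became 0.70 with an unadjusted p of 7.15e-04 and an adjusted p of 0.999 in edgeR, and without WT replicate 1 it was 0.034. *Hbegf*, the gene of the heparin-binding ligand, had 62.6, 56.9 and 90.8 CPM in WT and 56.4, 66.2 and 53.3 CPM in KO. Again WT replicate 3 was the highest library, and the log2 difference was -0.26 ± 0.18 (standard error; adjusted p = 0.941, edgeR). Without WT replicate 3 it was -0.027. *Tgfa* had 20.2, 12.0 and 20.1 CPM in WT and 23.3, 21.2 and 18.3 CPM in KO, with WT replicate 2 alone well below the rest (log2 fold change 0.26, 95% interval -0.26 to 0.79). *Btc*, the betacellulin gene, had 6.45, 10.0 and 11.3 CPM in WT and 7.99, 9.18 and 5.56 CPM in KO. *Ereg* had 173, 141 and 173 counts in WT but 96, 63 and 232 in KO, where the lowest and the highest library were both KO. Its log2 fold change was -0.36 (95% interval -1.37 to 0.64, adjusted p = 0.967, edgeR), and -0.97 without KO replicate 3 (unadjusted p = 0.0378, adjusted p = 0.801, edgeR).

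*Nrg1*, the ligand for ErbB3 and ErbB4, had 182, 94.8 and 133 CPM in WT and 134, 124 and 206 CPM in KO. WT replicate 1 and KO replicate 3 stood above the other 4 libraries, and the log2 difference was 0.17 ± 0.26 (standard error; adjusted p = 0.974, edgeR). Of the 5 other EGF family ligands, 4 passed the filter on low counts and 0 were called. *Nrg2* had 28.9 ± 0.455 CPM in WT and 26.1 ± 2.92 CPM in KO (SD, n = 3). *Nrg4* ranged from 4.57 to 24.0 CPM, with both of these libraries in KO. *Egf* (14 to 52 counts) and *Epgn* (3 to 59 counts) were close to the limit of detection, with log2 fold changes of 0.21 (standard error 0.72) and -1.26 (standard error 0.82). *Nrg3* had 0 counts in 4 libraries and at most 3 in the others.

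The levels of the 10 genes were set beside the marker sums of the same libraries, and none of these relations passed the test. The summed CPM of 8 luminal and luminal progenitor markers (*Elf5*, *Kit*, *Aldh1a3*, *Csn3*, *Cd14*, *Krt8*, *Krt18* and *Epcam*) was 2750, 5100 and 3720 in WT and 3770, 4860 and 2620 in KO. *Erbb3* was lowest in the same 2 libraries, WT replicate 1 and KO replicate 3, and highest in replicate 2 of each genotype. *Nrg1* was highest in the 2 libraries where the luminal sum was lowest. These relations were examined over 6 mice on log2 CPM for 10 genes and 4 marker lists, which makes 40 relations, with two-sided exact permutation p-values. The pattern was noticed in the values before it was tested, and genes and markers share libraries.

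**Figure D3:**
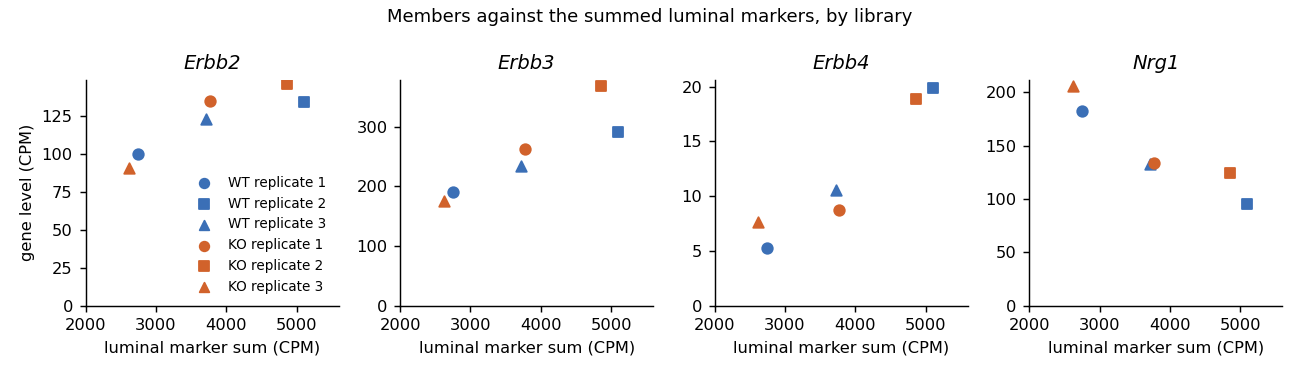
CPM of *Erbb2*, *Erbb3*, *Erbb4* and *Nrg1* in each library against the summed CPM of 8 luminal markers in the same library, with WT in blue and KO in orange. The receptors are lowest or near their lowest where the sum is 2620 or 2750, and *Nrg1* is highest there, at 206 and 182 CPM.

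For *Nrg1* and the luminal sum, Pearson's r was -0.96 (exact permutation p = 0.00278, adjusted p = 0.0833) and Spearman's rho -0.94 (exact permutation p = 0.0167, adjusted p = 0.222). Leaving out the 2 libraries farthest from the median, WT replicate 2 and KO replicate 3, gave r = -0.94. The hormone-sensing sum was taken over 6 luminal markers (*Esr1*, *Pgr*, *Prlr*, *Foxa1*, *Cited1* and *Prom1*). *Prlr* was its largest part in each library, with 570 of 1020 CPM in WT replicate 1 and 478 of 886 CPM in KO replicate 3. With this sum *Nrg1* gave r = -0.86 (exact permutation p = 0.0361, adjusted p = 0.16) and rho = -0.60 (exact permutation p = 0.242, adjusted p = 0.483). Without WT replicate 1 and KO replicate 3 its r was 0.47. For *Erbb3*, r was 0.94 (exact permutation p = 0.0125, adjusted p = 0.1) and rho 0.94 (exact permutation p = 0.0167, adjusted p = 0.222), for the luminal sum, with r = 0.97 on the 4 libraries left without WT replicate 2 and KO replicate 3. *Erbb4* gave r = 0.93 (exact permutation p = 0.0208, adjusted p = 0.139) and rho = 0.89 (exact permutation p = 0.0333, adjusted p = 0.292), with r = 0.98 on those 4. For *Erbb2* and the luminal sum, r was 0.93 (exact permutation p = 0.0125, adjusted p = 0.1) and rho 0.83 (exact permutation p = 0.0583, adjusted p = 0.292), with r = 0.96 on those 4. With the hormone-sensing sum its r was 0.98 (exact permutation p = 0.00417, adjusted p = 0.0833) and rho 0.94 (exact permutation p = 0.0167, adjusted p = 0.222), falling to r = 0.72 without WT replicate 1 and KO replicate 3. None of the 40 relations passed an adjusted p of 0.05. *Egfr* gave r = -0.44 with the luminal sum (exact permutation p = 0.406, adjusted p = 0.667; rho = -0.41, exact permutation p = 0.433, adjusted p = 0.667), but r = 0.74 without WT replicate 2 and KO replicate 3. *Btc* gave r = 0.80 with the luminal sum (exact permutation p = 0.0528, adjusted p = 0.179; rho = 0.66, exact permutation p = 0.175, adjusted p = 0.438), and r = 0.63 without the same 2 libraries. With the hormone-sensing sum it gave r = 0.88 (exact permutation p = 0.0306, adjusted p = 0.16; rho = 0.54, exact permutation p = 0.297, adjusted p = 0.54), which turned to -0.36 without WT replicate 1 and KO replicate 3. *Areg* gave r = 0.17 with the luminal sum (exact permutation p = 0.739, adjusted p = 0.840; rho = 0.14, exact permutation p = 0.803, adjusted p = 0.944), and r = 0.77 once WT replicate 2 and KO replicate 3 were left out. With the hormone-sensing sum *Areg* gave r = 0.46 (exact permutation p = 0.332, adjusted p = 0.604; rho = 0.66, exact permutation p = 0.175, adjusted p = 0.438), and r = 0.51 without WT replicate 1 and KO replicate 3. Fibroblast markers moved with these libraries too, and for *Erbb3* r with their sum was -0.81 (exact permutation p = 0.0583, adjusted p = 0.179; rho = -0.71, exact permutation p = 0.136, adjusted p = 0.438). Without replicate 2 of both genotypes it was -0.44. With the fibroblast sum *Erbb4* gave r = -0.85 (exact permutation p = 0.0458, adjusted p = 0.179) and rho = -0.66 (exact permutation p = 0.175, adjusted p = 0.438). *Nrg1* gave r = 0.74 (exact permutation p = 0.101, adjusted p = 0.29) and *Erbb2* r = -0.69 (exact permutation p = 0.135, adjusted p = 0.317). Without replicate 2 of both genotypes these were -0.17 for *Erbb4*, 0.20 for *Nrg1* and -0.39 for *Erbb2*. The part of either cell type in these levels was not tested.

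*Areg*, *Nrg1* and *Hbegf* made up nearly all of the summed TPM of the 6 ligands. *Nrg2* and *Nrg4* lie outside this sum. Their medians of 27.8 and 19.9 TPM on the same scale were above that of *Tgfa*, at 12.7 TPM. *Areg* gave 54.7% ± 7.95 of the summed TPM of the 6 ligands in WT and 60.3% ± 4.28 in KO, and *Nrg1* 25.1% ± 7.61 and 25.1% ± 5.73 (SD, n = 3). Of the 10 shares, 1 did not overlap between the genotypes, that of *Hbegf*, where 11.7% of all genes did not overlap in CPM. It was 16.4%, 17.1% and 16.0% in WT and 11.2%, 12.9% and 10.2% in KO. All 3 KO mice lay below all 3 WT mice by this measure. The difference of -5.07 percentage points had a two-sided exact permutation p of 0.1, the smallest that 3 against 3 mice allow, and an adjusted p of 1.0 over the 10 shares. Such a share also moves with *Areg* and *Nrg1*, and in CPM the *Hbegf* libraries overlapped as given above.

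**Figure D4:**
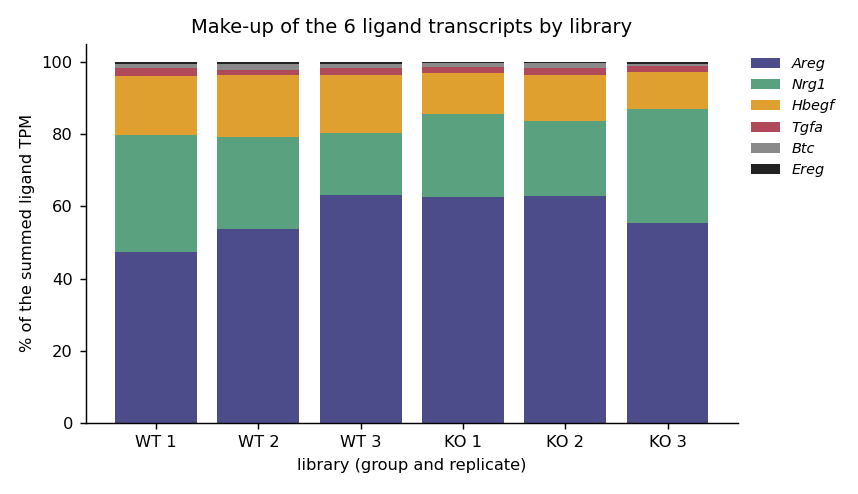
Share of each of the 6 ligands in their summed TPM, one stacked bar per library from 0 to 100%. *Areg* takes 47.3% to 63.1% of a bar, and the *Hbegf* band is thinner in the 3 KO libraries (10.2% to 12.9%) than in the 3 WT libraries (16.0% to 17.1%).

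The ratio of a gene's estimated count to its TPM gives the effective transcript length that the quantification assigned to it in each library, and with it a view of which transcripts were counted. The scale was set on 1072 genes with a single annotated transcript, for which the highest library exceeded the lowest by a median of 1.00 times. *Areg*, *Erbb3* and *Ereg* have 1 annotated transcript each and their length hardly moved, from 1080 to 1085, 6173 to 6178 and 4172 to 4174 bases. The other genes have several transcripts. *Erbb4* varied most of the 10, with 4568, 4399 and 2636 bases in WT and 5392, 6067 and 8350 bases in KO. Its 3 KO libraries all lay above its 3 WT libraries, as did 5.50% of 11145 genes with several transcripts. In 4.92% the KO libraries were all shorter, which makes 10.4% without overlap in either direction. The highest *Erbb4* library exceeded the lowest 3.17 times, a wider spread than in 98.1% of those genes, on 162 to 568 counts per library. *Erbb4* has 5 annotated transcripts of 240 to 12037 bases, so that short and long forms differ greatly in length. Level per length and CPM therefore ordered the libraries differently for *Erbb4*, with 2.71, 10.0 and 9.24 TPM in WT and 3.68, 6.83 and 2.10 TPM in KO.

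**Figure D5:**
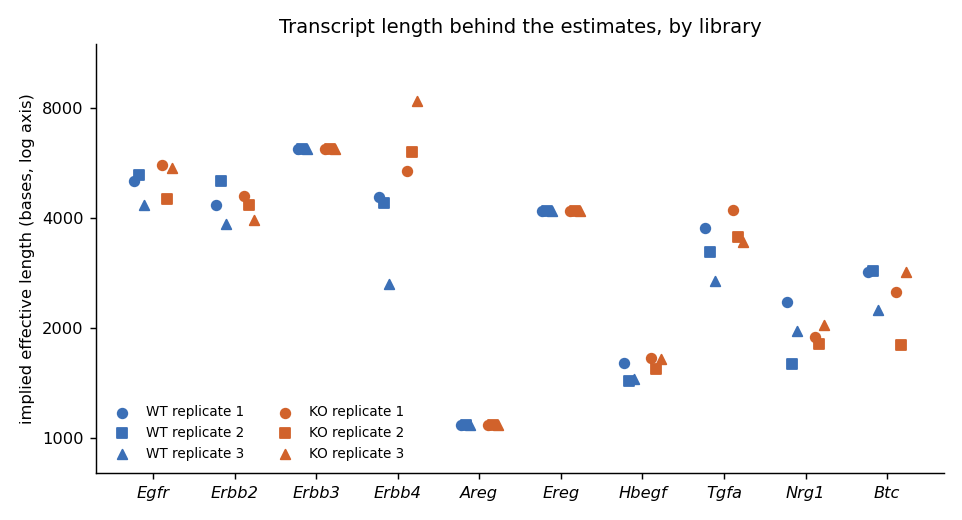
Effective transcript length implied by the count and TPM of each gene in each library (bases, log axis), with WT in blue and KO in orange. Genes with 1 transcript (*Erbb3*, *Areg*, *Ereg*) are constant, while *Erbb4* runs from 2636 bases in WT replicate 3 to 8350 in KO replicate 3.

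*Nrg1*, which has 18 annotated transcripts of 285 to 5415 bases, had implied lengths of 2347, 1589 and 1961 bases in WT and 1891, 1803 and 2037 bases in KO. WT replicate 1 was the longest and WT replicate 2 the shortest, so that the genotypes overlapped. *Tgfa* ranged from 2687 to 4211 bases, *Btc* from 1794 to 2868, *Egfr* from 4343 to 5585, *Erbb2* from 3851 to 5058 and *Hbegf* from 1433 to 1650, each with overlap between the genotypes. For *Egfr* all lengths lay far below its longest transcript of 10208 bases.

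The proteins that release the ligands and relay the signal were followed as lists. Of 10 genes for ligand shedding and trafficking, 0 were called, 3 were higher and 7 lower, with a median log2 fold change of -0.09. The smallest p-values belonged to *Adam17*, the main sheddase of EGFR ligands (-0.26, standard error 0.12, adjusted p = 0.906, edgeR), *Cnih1* (-0.31, standard error 0.15) and *Rhbdf1* (-0.17, standard error 0.13). *Cnih1* was lower in all 3 KO mice than in any WT mouse, as were 5.50% of all genes. Of 20 adaptors and kinases, 0 were called, 13 were higher and 7 lower (median 0.054). Only 1 of the 20 had an unadjusted p under 0.05, a share close to the 5.32% of all genes. This was *Plcg1* for phospholipase C gamma (0.41, standard error 0.14, adjusted p = 0.906, edgeR). *Gab2* (-0.38, standard error 0.21) and *Shc1* (0.15, standard error 0.11) came next.

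Of 15 genes that restrain the receptors or lead to their degradation, 0 were called, and 10 were higher and 5 lower in KO (median 0.061). At an unadjusted p under 0.05 there was 1 of the 15, close to the 5.32% of all genes. In 4 of them, *Lrig3*, *Nedd4*, *Cbl* and *Rnf41*, each KO mouse lay above each WT mouse in CPM, where the background of genes higher without overlap is 6.23%. On the rescaled TPM this held for *Lrig3* alone, while *Nedd4* and *Rnf41* overlapped and *Cbl* had 128, 101 and 94.4 TPM in WT and 75.4, 114 and 48.3 TPM in KO. The log2 fold change of *Cbl* was 0.061 in edgeR. *Cbl* and *Rnf41* lie outside the rule by which genes were named and were chosen after their values were seen. Both encode ubiquitin ligases that act on ErbB receptors. *Lrig3* was at 0.43 ± 0.16 on the log2 scale (standard error; adjusted p = 0.906, edgeR) and *Nedd4* at 0.15 ± 0.077. *Lrig2* followed with 0.26 (standard error 0.16). Of 17 ERK feedback and target genes, 12 were higher and 5 lower (median 0.068), 0 were called, and 3 had an unadjusted p under 0.05, against 5.32% of all genes. The genotypes did not overlap in 2 of the 17, about the 11.7% of all genes. The 3 genes with an unadjusted p under 0.05 were *Phlda1*, *Spry2*, a feedback inhibitor, and the immediate early gene *Fos*. Their log2 fold changes were -0.47 (standard error 0.17), -0.26 (standard error 0.10) and 0.41 (standard error 0.17). Each had an adjusted p of 0.906 in edgeR. Of these 3, *Spry2* alone was without overlap between the genotypes.

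Of 10 genes of the estrogen and progesterone response, 9 were tested and 0 were called, 5 being higher and 4 lower (median 0.0061). On the log2 scale *Gata3* was at 0.26 (standard error 0.18), *Cited1* at -0.19 (standard error 0.20) and *Pgr*, the progesterone receptor gene, at 0.26 (standard error 0.30). All 8 basal markers were higher in KO (median log2 fold change 0.42) and 0 of them were called, although 5 had an unadjusted p under 0.05, where 2.99% of all genes were higher at that p. The summed basal CPM was 5470, 4920 and 4170 in WT and 5950, 5680 and 6830 in KO. Each KO sum lay above each WT sum, so a relation to this sum cannot be told apart from a difference between genotypes. Against this sum *Btc* gave r = -0.84 (exact permutation p = 0.0333, adjusted p = 0.16; rho = -0.83, exact permutation p = 0.0583, adjusted p = 0.292), and r = -0.41 without WT replicate 3 and KO replicate 3. *Hbegf* gave r = -0.81 (exact permutation p = 0.0556, adjusted p = 0.179; rho = -0.77, exact permutation p = 0.103, adjusted p = 0.411), which turned to 0.21 without the same 2 libraries. The other 8 genes had r between -0.40 and 0.56 with the basal sum, each with an adjusted p of 0.464 or more.

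The genes whose profile over the 6 libraries lay nearest to that of the most variable receptor and ligand were sought among 13569 protein-coding genes, by the root mean square difference of centred log2 CPM. For *Erbb4*, which spanned 1.91 on this scale, they were *Fam131c* (0.12), *Gna14* (0.21) and *Clca3a2* (0.21). For *Ereg*, which spanned 1.80, they were *Hal* (0.10), *Nckap5* (0.16) and *Olfr1198* (0.18). With so many genes and 6 libraries, near matches of this kind are a description only.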

How the data were processed

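RNA-seq of 6 libraries was analysed, 3 WT and 3 *Glis2* KO. The authors quantified 40-nucleotide paired reads with Salmon 1.2.1 on an mm10 transcriptome (Ensembl annotation) with the genome as decoy and summed transcripts to genes with tximport. The deposited estimated counts are whole numbers without scaling, and the deposited log2 values are log2(TPM + 1). As estimates, both depend on how reads were shared between overlapping transcripts. Of 54418 identifiers, 54166 matched GENCODE M21 (GRCm38), which gave symbols and positions. Counts were tested with edgeR 4.0.16 in R 4.3.3 (filterByExpr, TMM, quasi-likelihood test, Benjamini-Hochberg over 21236 genes, calls from an adjusted p of 0.05 or less with a log2 difference of 0.58 or more either way). The standard error is the log2 fold change divided by the root of F. Alternatives used DESeq2 1.42.0 with apeglm 1.24.0, and limma 3.58.1 on log2(TPM + 1) or log2(TPM + 0.1). The functions were checked on simulated data. Libraries were no copies of each other (chi-square per degree of freedom at least 20.5). Total counts of 24996524 to 31393917 set the precision of each value, and intervals come from the spread between mice, which includes counting error. With 1 library per mouse, the edgeR, DESeq2 and limma tests set the genotype difference against the variation between mice, moderated across genes. The implied length is the count divided by TPM, scaled so that genes with 1 transcript of at least 2000 bases and at least 50 counts per library match their annotated length. The genes and lists were chosen with earlier results of these data known. The text names the 10 genes, the 5 other ligands, *Glis2*, the 3 genes with the smallest p of each pathway list, and the 3 nearest profiles, besides markers and *Cbl* and *Rnf41*, which the text adds outside this rule.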

Additional observations from a re-analysis of the deposited data

How the results depend on the processing

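No alternative called any of the 10 genes. Over all genes the count called was 0 in edgeR (1130 at an unadjusted p under 0.05), 45 with DESeq2 and apeglm, 40 without a filter on low counts and 1 with log2(TPM + 0.1) in limma, and 0 in each of the others, with 0 without each mouse in turn. The cause was not tested. It was 0 also without replicate 2 of both genotypes, an alternative chosen after seeing the data, where *Hbegf* had a log2 fold change of -0.49 (unadjusted p = 0.0376, adjusted p = 0.968, edgeR) and *Erbb4* turned to 0.035. With a replicate block the direction of *Erbb4* turned to 0.051 and no call changed for the 10 genes. The labels do not say that replicate numbers pair the mice. Deviations of same-numbered mice correlated by -0.02, 0.17 and 0.02, which cannot show whether mice shared a litter or handling. On log2(TPM + 1) in limma the median of all genes was -0.064 and the log2 fold changes of *Egfr*, *Erbb2*, *Erbb3* and *Tgfa* turned to -0.093, -0.094, -0.043 and -0.073. With log2(TPM + 0.1) the median was -0.14 and these 4 were at -0.11, -0.11, -0.05 and -0.097, above that median. *Nrg1* was shrunk to -8e-06 with DESeq2 and apeglm. With 1 mouse left out, the log2 difference ranged for *Erbb2* between -0.088 and 0.22, for *Erbb3* between -0.14 and 0.39, for *Erbb4* between -0.55 and 0.57 and for *Nrg1* between -0.10 and 0.42, across 0 in each case. *Areg* (0.034 to 0.70), *Ereg* (-0.97 to -0.026), *Hbegf* (-0.39 to -0.027) and *Btc* (-0.52 to -0.12) kept their direction in all 16 alternatives. In the order of levels, 4 pairs of neighbours were separate on the rescaled TPM and 3 on TPM as deposited, where *Hbegf* (lowest 6.7) overlapped *Erbb2* (highest 8.3). With 3 mice a genotype, the 95% intervals of *Erbb4* and *Ereg* each extend beyond -1 on the log2 scale.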

Other observations

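*Glis2* itself belongs to none of the lists above. Its implied transcript length was 1727, 1338 and 2444 bases in WT and 751, 1233 and 1226 bases in KO, all 3 KO libraries below all 3 WT libraries, as in 4.92% of genes with several transcripts. On the TPM scale rescaled to protein-coding genes it stood at 29.7, 38.4 and 18.4 TPM in WT and 30.6, 30.2 and 30.6 TPM in KO.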
